A study of Mus musculus with 18 samples.

Results

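The cyclins and kinases that carry a cell out of G1 were examined as 10 genes: the D-type cyclins *Ccnd1*, *Ccnd2* and *Ccnd3*, the E-type cyclins *Ccne1* and *Ccne2*, the kinases *Cdk2*, *Cdk4* and *Cdk6*, and the pocket protein genes *Rb1* and *Rbl1*. They were taken by name from a table of 16545 genes, and all 10 were found there and passed the filter on low values in every comparison. RNA was sequenced from total splenic B cells of C57BL/6 mice, purified by flow cytometry, before culture (0 h) and after 24 h and 48 h with LPS, a bacterial product that makes B cells divide and begin plasma cell differentiation. Control mice carried a heterozygous Cre allele active in the B lineage alone, and B-CKO mice carried the same allele with Zbtb24loxp/loxp, in which Cre removes exon 2 of *Zbtb24*, so both genotypes carried the Cre allele and deletion was limited to B-lineage cells. Each of the 6 groups held 3 libraries, numbered 1 to 3 in the labels, each replicate from 1 mouse, and read here as 3 mice per genotype followed over the 3 times, which gave 18 libraries. The age of these mice and the dose of LPS are not given in the sources used here. No culture without LPS was included, so time in culture and LPS cannot be told apart.

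In a resting cell the pocket proteins, Rb1 and its relatives, hold E2F transcription factors and keep the genes of DNA synthesis quiet. Mitogens raise the D-type cyclins, which bind CDK4 or CDK6 and begin to phosphorylate the pocket proteins, after which E-type cyclins with CDK2 complete the release of E2F and the cell enters S phase. Naive splenic B cells rest outside the cycle until a signal such as LPS arrives, and in mature B cells cyclin D2 and cyclin D3 are the D-type cyclins known to be used.

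Promoter sequence was read for 6 of the 10 genes from RefSeq (GRCm38.p6, the assembly that mm10 names), as the 250 bases before an annotated start. It is shown because members whose levels moved together were compared for shared letters: CACGTG, the E-box that Myc can bind, and the E2F letters TTTCCCGC, TTTCGCGC, TTTGCCGC and TTTGGCGC, each on both strands, none of them sharing letters with the other motif. Capitals mark the matches.
Cdk4 (chr10:127063285-127063534, plus strand): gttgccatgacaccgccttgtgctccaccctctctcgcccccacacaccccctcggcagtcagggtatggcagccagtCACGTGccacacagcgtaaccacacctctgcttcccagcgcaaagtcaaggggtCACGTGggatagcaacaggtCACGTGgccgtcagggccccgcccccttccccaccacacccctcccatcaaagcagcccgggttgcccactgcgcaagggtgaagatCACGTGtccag
Cdk6 (chr5:3343643-3343708, plus strand): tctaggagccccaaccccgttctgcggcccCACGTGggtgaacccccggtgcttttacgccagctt
Cdk2 (chr10:128705154-128705221, minus strand): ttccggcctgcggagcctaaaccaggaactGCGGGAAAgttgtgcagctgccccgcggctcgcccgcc
Rbl1 (chr2:157204535-157204582, minus strand): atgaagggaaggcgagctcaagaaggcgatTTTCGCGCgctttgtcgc
*Cdk4* held 4 E-boxes, at 172, 118, 98 and 11 bases before its start, and *Cdk6* held 1, at 220 bases before an annotated start that lies inside the gene span given for it. At least 1 E-box was found in 6.02% of all 32851 promoter windows of this length. An E2F match lay 140 bases before the start of *Cdk2* and 18 bases before that of *Rbl1*, and 1.86% of all windows held one. *Ccne1* and both starts of *Ccnd3* had neither set of letters in this window, and the windows of *Cdk4* and *Cdk6* had no E2F match. No promoter entry was available for *Ccnd1*, *Ccnd2*, *Ccne2* and *Rb1*, so pairs with these genes were not compared. As Pearson correlations of log2(FPKM + 1) over 18 libraries, *Cdk4* and *Cdk6*, both with an E-box, had 0.786. *Cdk2* and *Rbl1*, both with an E2F match, had 0.987, and *Ccne1* and *Cdk2*, without shared letters, had 0.988. The matches describe letters only.

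The libraries were close to each other within a group, with correlations of log2 values between replicates of 0.986 to 0.999. *Zbtb24* was lower in every B-CKO library than in any control library of its time, at 10.5 to 14.3 against 37.1 to 49.6 FPKM before culture, 10.4 to 11.7 against 15.7 to 18.8 FPKM after 24 h and 9.23 to 11.3 against 13.4 to 17.1 FPKM after 48 h. FPKM divides the fragments of a gene by its length and by the library's mapped total, so levels may be compared between genes, and fold changes are given as log2 of FPKM + 1, which understates the change of genes near 1 FPKM. A set of 7 B cell markers summed to 3724 to 4787 FPKM in controls and 3864 to 4916 FPKM in B-CKO cells at 0 h. At 24 h the sums were 2095 to 2259 FPKM and 1955 to 2022 FPKM, which did not overlap. At 48 h they were 2188 to 2358 FPKM and 2284 to 2563 FPKM. None of the 7 was below 25.5 FPKM in any library. Markers of T cells, all 9 of them detected, summed to 214 to 222 FPKM in controls and 167 to 200 FPKM in B-CKO cells at 0 h. At 24 h the sums were 38.5 to 42.8 FPKM and 29.7 to 33.4 FPKM, and at 48 h 69.6 to 85.4 FPKM and 60.5 to 83.9 FPKM. The genotypes thus did not overlap at 0 h and 24 h, and all 9 markers fell from 0 h to 24 h in both. Most of this sum was *Cd2* (143 to 194 FPKM at 0 h) and *Lck* (16.2 to 22.7 FPKM), and the other 7, with *Cd3d*, *Cd3e* and *Cd4* among them, were each at 0.27 to 3.31 FPKM at 0 h, at most 0.69 FPKM at 24 h and at most 0.43 FPKM at 48 h. Myeloid markers summed to 4.45 to 10.7 FPKM at 0 h and 3.33 to 5.38 FPKM at 24 h. Of these 8, 3 were called lower in controls and 1, *Itgam*, higher (0.79, adjusted p = 0.00245, limma). In B-CKO cells 4 were called lower and 1 higher. Natural killer cell markers summed to 1.72 to 2.88 FPKM at 0 h and 0.08 to 0.40 FPKM at 24 h, with 3 of 4 called lower in controls and 4 of 4 in B-CKO cells. Erythroid markers summed to 11.7 to 71.1 FPKM at 0 h and 7.51 to 12.7 FPKM at 24 h. Of 5 tested in controls, 4 were called lower and 1, *Hbb-bt*, higher (1.16, adjusted p = 0.00251, limma). In B-CKO cells 3 of 6 were called lower and 0 higher. Over all genes tested, 30.7% were called lower in controls and 32.3% in B-CKO cells. Platelet markers summed to at most 0.79 FPKM and plasma cell markers to 135 to 420.1 FPKM. The typical SD between mice, on the log2 scale, was 0.169 in controls and 0.158 in B-CKO at 0 h, against 0.0545 to 0.0852 in the cultured groups, so differences were measured less precisely at 0 h.

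**Figure D1:**
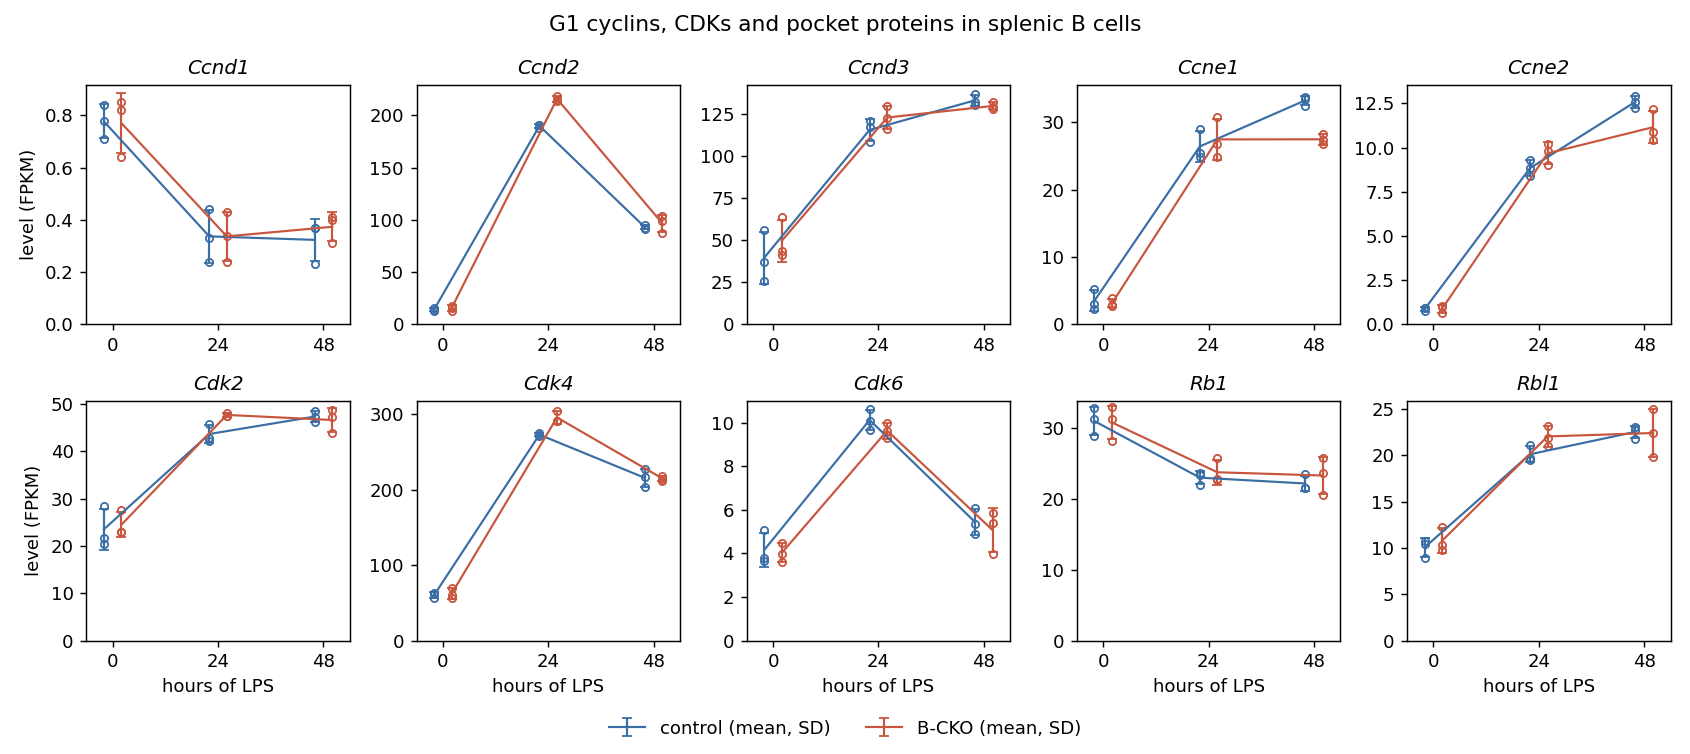
Level of each of the 10 genes (FPKM, vertical axis from 0) against hours of LPS in control (blue) and B-CKO (red) B cells; open circles are mice and bars the mean with SD over 3 mice. *Ccnd2*, *Cdk4* and *Cdk6* stand highest at 24 h, *Ccnd1* and *Rb1* stand highest at 0 h, and the other 5 stay near or above their 24 h level at 48 h.

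The first comparison asked how these genes changed in control B cells over the first day with LPS. All 10 changed: 8 rose and 2, *Ccnd1* and *Rb1*, fell (limma on log2(FPKM + 1), adjusted p under 0.05). Over all 15531 genes tested, 26.7% rose and 30.7% fell. The median log2 fold change was 1.35 for the 10 genes and -0.02 for all genes tested. B-CKO cells gave the same 8 and 2, where 27.5% of 15551 genes rose and 32.3% fell. From 0 h to 48 h, 7 rose and 2 fell in each genotype, with *Cdk6* the exception in both; the background was 26.5% higher and 30.3% lower in controls and 27.0% and 30.7% in B-CKO cells.

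Among the D-type cyclins, which pair with CDK4 and CDK6, *Ccnd2* (chr6:127125162-127152188, GRCm38 as for all positions of genes here) moved most. Control mice 1 to 3 had 12.9, 15.9 and 13.4 FPKM at 0 h, 191, 188 and 191 FPKM at 24 h and 95.2, 91.6 and 92.4 FPKM at 48 h. B-CKO mice had 16.02, 17.99 and 12.7 FPKM at 0 h, 219, 214 and 215 FPKM at 24 h and 98.7, 103.9 and 87.4 FPKM at 48 h. The 3 times did not overlap in either genotype, and 24 h was the high point in all 6 mice. *Ccnd2* rose by a log2 fold change of 3.67 (SE 0.08, adjusted p = 4.97e-06) in controls and 3.72 (SE 0.12, adjusted p = 3.25e-06) in B-CKO cells by 24 h, 13.5-fold and 13.9-fold as ratios of the mean FPKM. Its level then dropped by 1.02 (SE 0.03, adjusted p = 9.71e-06) and by 1.16 (SE 0.06, adjusted p = 2.53e-05) (log2) over the second day.

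*Ccnd3* (chr17:47505051-47599689) encodes the D-type cyclin that germinal centre B cells depend on. Control mice had 37.2, 56.0 and 25.5 FPKM at 0 h, 108, 117 and 121 FPKM at 24 h and 132, 136 and 130.3 FPKM at 48 h. In B-CKO mice the values were 43.7, 63.7 and 41.3 FPKM at 0 h, 116, 122 and 129.7 FPKM at 24 h and 132, 128 and 129 FPKM at 48 h. Mouse 2 had the highest level of its genotype at 0 h in both genotypes, and every cultured library stood above every 0 h library. By 24 h *Ccnd3* rose by 1.59 (SE 0.26, adjusted p = 0.00246) in controls and by 1.32 (SE 0.16, adjusted p = 0.000553) in B-CKO cells. From 24 h to 48 h it rose a little further in controls, by 0.20 (SE 0.05, adjusted p = 0.0115), while the B-CKO value was 0.08 (SE 0.05, adjusted p = 0.209).

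*Ccnd1*, the D-type cyclin of many epithelial tissues (chr7:144929931-144939831), stood below 1 FPKM in every library, at the 34.7 to 38.3 percentile of all genes in the table by group mean. Control mice had 0.71 to 0.84 FPKM at 0 h, 0.24 to 0.44 FPKM at 24 h and 0.23 to 0.37 FPKM at 48 h. B-CKO mice had 0.64 to 0.85, 0.24 to 0.43 and 0.31 to 0.41 FPKM at the same times. Every cultured library was below every 0 h library, and 24 h and 48 h overlapped. The fall by 24 h was -0.41 in controls (SE 0.07, adjusted p = 0.00195) and -0.41 in B-CKO cells (SE 0.07, adjusted p = 0.00298). The 7 low T cell markers and most natural killer cell and erythroid markers tested in controls fell over the same interval, and the part of other cells in the *Ccnd1* value was not tested; fewer cells of a type and less RNA per cell cannot be told apart in bulk RNA. In the RefSeq annotation the gene span of *Ccnd1* shares 818 bases with that of LTO1, itself at 4.50 to 12.2 FPKM. Whether reads were counted by strand is not given in the sources used here. Gene spans are also shared by *Ccnd3* with *Bysl* (359 bases), by *Cdk2* with *Pmel* (7114, *Pmel* at 0.24 to 1.78 FPKM) and by *Cdk4* with *Tspan31* (2). *Rb1* shares 2468 bases of its span with *Lpar6*, at 3.61 to 9.06 FPKM. All these counts take whole gene spans, introns included. Shared exon bases were not counted, and any effect on the levels was not tested.

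Read as shares of the summed D-type cyclin FPKM within each library, a measure that library scaling does not move, the composition of the D-type cyclins changed with time. *Ccnd2* made up 27.0% ± 6.17 (SD, n = 3) in controls at 0 h, 62.2% ± 1.42 at 24 h and 41.1% ± 0.888 at 48 h. In B-CKO cells it made up 23.9% ± 2.43, 63.7% ± 1.52 and 42.6% ± 2.19. *Ccnd3* was the larger share at 0 h and at 48 h in all 6 mice and the smaller at 24 h in all 6, and *Ccnd1* was at most 2.11% of the sum in any library. The sum itself went from 54.4 ± 16.8 FPKM to 306 ± 6.77 and 226 ± 2.85 in controls, and from 65.9 ± 14.7 to 339 ± 5.21 and 227 ± 8.81 in B-CKO cells. At 48 h the sums of the genotypes overlapped, and at 24 h the B-CKO sums (335 to 345 FPKM) lay above the control sums (299 to 313 FPKM).

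**Figure D2:**
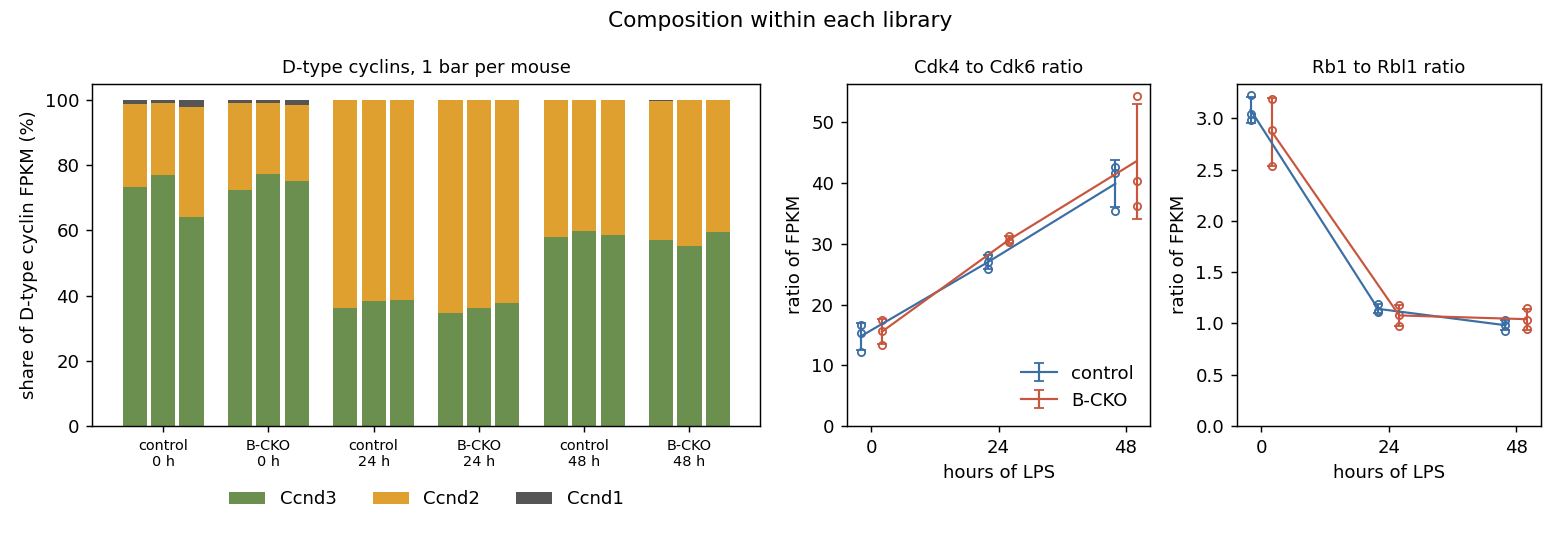
Left, share of each D-type cyclin in their summed FPKM (percent), 1 stacked bar per mouse; middle and right, ratio of *Cdk4* to *Cdk6* and of *Rb1* to *Rbl1* FPKM against hours of LPS, circles for mice and bars for mean and SD over 3 mice. *Ccnd2* is the larger share at 24 h and *Ccnd3* at 0 h and 48 h, and the *Rb1* to *Rbl1* ratio drops from about 3.08 in controls at 0 h to 1.14 at 24 h.

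*Cdk4* (chr10:127063535-127067288), a catalytic partner of the D-type cyclins, was the highest of the 10 genes in mean level in all 6 groups. Control mice had 62.7, 56.1 and 61.6 FPKM at 0 h, 272, 275 and 272 FPKM at 24 h and 227, 216 and 203 FPKM at 48 h. B-CKO mice had 69.8, 56.2 and 60.0 FPKM, then 291, 305 and 291 FPKM, then 218, 212 and 214 FPKM. No library of one time overlapped another time in either genotype. The rise by 24 h was 2.16 (SE 0.06, adjusted p = 5.17e-06) in controls and 2.24 (SE 0.08, adjusted p = 4.82e-06) in B-CKO cells. It then fell by 0.34 (SE 0.045, adjusted p = 0.00109) and by 0.46 (SE 0.04, adjusted p = 8.89e-05).

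*Cdk6* (chr5:3341004-3531008) encodes the second kinase of D-type cyclins and was likewise highest at 24 h, at a far lower level. Control mice had 3.77, 3.65 and 5.05 FPKM at 0 h, 9.68, 10.6 and 10.1 FPKM at 24 h and 5.33, 6.10 and 4.88 FPKM at 48 h. The B-CKO values were 3.99, 3.60 and 4.48, then 9.62, 10 and 9.27, then 5.40, 5.85 and 3.95. The 24 h libraries stood above all others, while 0 h and 48 h overlapped. The rise by 24 h was 1.12 (SE 0.13, adjusted p = 0.00046) and 1.08 (SE 0.10, adjusted p = 0.000124), and the fall to 48 h was -0.79 (SE 0.08, adjusted p = 0.000365) and -0.82 (SE 0.12, adjusted p = 0.00165). At 48 h against 0 h *Cdk6* had a value of 0.33 (95% interval -0.02 to 0.68, adjusted p = 0.1) in controls, which passed the threshold without control mouse 3 at 0 h (adjusted p = 0.0221) and in a single fit of all 18 libraries (adjusted p = 0.0345), and 0.26 (-0.11 to 0.64, adjusted p = 0.198) in B-CKO cells. The ratio of *Cdk4* to *Cdk6* FPKM was 14.7 ± 2.28 in controls at 0 h, 27.0 ± 1.10 at 24 h and 39.9 ± 3.88 at 48 h, and 15.5 ± 2.05, 30.7 ± 0.591 and 43.6 ± 9.47 in B-CKO cells.

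The E-type cyclins, which act with CDK2 at the end of G1, rose from low resting levels. *Ccne1* (chr7:38097984-38107490) was at 5.20, 3.07 and 2.24 FPKM in control mice at 0 h, 25.4, 24.8 and 29.0 FPKM at 24 h and 33.8, 33.5 and 32.5 FPKM at 48 h. The same gene was at 3.84, 2.86 and 2.69 FPKM in B-CKO mice at 0 h, 24.8, 26.8 and 30.8 FPKM at 24 h and 28.3, 27.4 and 26.7 FPKM at 48 h. Both genotypes separated 0 h from the cultured cells. Only the control mice separated 24 h from 48 h. The rise by 24 h was 2.66 (SE 0.24, adjusted p = 0.000163) in controls and 2.79 (SE 0.14, adjusted p = 1.04e-05) in B-CKO cells, 7.54-fold and 8.77-fold as ratios of mean FPKM. From 24 h to 48 h *Ccne1* rose by 0.32 (SE 0.06, adjusted p = 0.00482) in controls and had a value of 0.01 (SE 0.08, adjusted p = 0.972) in B-CKO cells.

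*Ccne2* (chr4:11190433-11204779) stood below 1.1 FPKM in all 0 h libraries. Control mice had 0.93, 0.73 and 0.92 FPKM at 0 h, 9.27, 8.39 and 8.84 FPKM at 24 h and 12.9, 12.2 and 12.6 FPKM at 48 h, and B-CKO mice had 0.63, 0.97 and 1.06 FPKM, 9.80, 8.99 and 10.2 FPKM and 10.9, 12.2 and 10.4 FPKM. The ratio of mean FPKM at 24 h to 0 h was 10.3 in controls and 10.9 in B-CKO cells, larger than the fitted log2 changes of 2.40 (SE 0.10, adjusted p = 9.26e-06) and 2.51 (SE 0.12, adjusted p = 1.01e-05) convey, because 1 was added before the logarithm. From 24 h to 48 h it rose by 0.47 (SE 0.05, adjusted p = 0.000478) in controls, and the B-CKO value was 0.19 (SE 0.07, adjusted p = 0.0837, and adjusted p = 0.0432 with genes averaging 1 FPKM or more). *Ccne1* stayed 2.25 to 6.10 times as high as *Ccne2* in every library. The gene spans of *Ccne2* and *Ints8*, introns included, share 5622 bases, and *Ints8* was at 10.8 to 22.2 FPKM.

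*Cdk2* (chr10:128697938-128705051), the kinase of the E-type cyclins, had smaller fold changes than its cyclins. Control mice had 28.4, 21.6 and 20.5 FPKM at 0 h, 42.2, 42.9 and 45.8 FPKM at 24 h and 46.2, 47.3 and 48.4 FPKM at 48 h. B-CKO mice had 27.6, 22.9 and 23.0 FPKM, then 47.5, 48.1 and 47.4 FPKM, then 47.1, 48.8 and 43.9 FPKM. The 0 h libraries were apart from all others, and 24 h and 48 h overlapped in B-CKO mice but not in control mice. The rise by 24 h was 0.88 (SE 0.13, adjusted p = 0.00129) in controls and 0.94 (SE 0.08, adjusted p = 0.000107) in B-CKO cells. The control value from 24 h to 48 h was 0.11 (SE 0.04, adjusted p = 0.0529). With the mouse as a block in the fit its adjusted p was 0.0432, with median ratio scaling 0.0273 and without control mouse 3 at 24 h 0.0223; the B-CKO value was -0.03 (SE 0.04, adjusted p = 0.583).

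The pocket protein genes moved in opposite directions. *Rb1* (chr14:73192858-73325951), the retinoblastoma gene and a brake on E2F, was at 32.7, 31.2 and 28.8 FPKM in control mice at 0 h, 23.3, 22.0 and 23.6 FPKM at 24 h and 21.5, 21.5 and 23.4 FPKM at 48 h. In B-CKO mice it was at 31.2, 32.9 and 28.2 FPKM, then 25.7, 22.7 and 22.7 FPKM, then 25.7, 23.6 and 20.5 FPKM. Every 0 h library stood above every cultured library, and the cultured times overlapped. *Rb1* fell by 0.41 (SE 0.07, adjusted p = 0.00255) in controls and by 0.36 (SE 0.08, adjusted p = 0.00907) in B-CKO cells by 24 h. At 48 h against 0 h it fell by 0.46 (SE 0.08, adjusted p = 0.00211) in controls and by 0.39 (SE 0.10, adjusted p = 0.016) in B-CKO cells, the latter with an adjusted p of 0.0549 without B-CKO mouse 2 at 0 h.

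*Rbl1* (chr2:157145893-157204534) encodes p107, a pocket protein that is itself an E2F target and accumulates in cycling cells. It was at 10.8, 10.5 and 8.93 FPKM in control mice at 0 h, 19.5, 19.7 and 21.1 FPKM at 24 h and 21.8, 23.1 and 22.7 FPKM at 48 h, and at 12.3, 10.3 and 9.77 FPKM, 21.9, 21.0 and 23.2 FPKM and 22.4, 25.0 and 19.8 FPKM in B-CKO mice. All cultured libraries were above all 0 h libraries. The rise by 24 h was 0.94 (SE 0.09, adjusted p = 0.000212) and 0.97 (SE 0.10, adjusted p = 0.0002). A further rise of 0.16 (SE 0.04, adjusted p = 0.0237) in controls from 24 h to 48 h lost its call when libraries were scaled to TPM (adjusted p = 0.109) and without either control mouse 1 or 2 at 24 h or control mouse 2 or 3 at 48 h (adjusted p 0.0664 to 0.0806). The ratio of *Rb1* to *Rbl1* FPKM went from 3.08 ± 0.126 to 1.14 ± 0.044 and 0.983 ± 0.0508 in controls and from 2.87 ± 0.331 to 1.08 ± 0.1 and 1.04 ± 0.103 in B-CKO cells, so that the 2 genes stood at about the same level in cultured cells.

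**Figure D3:**
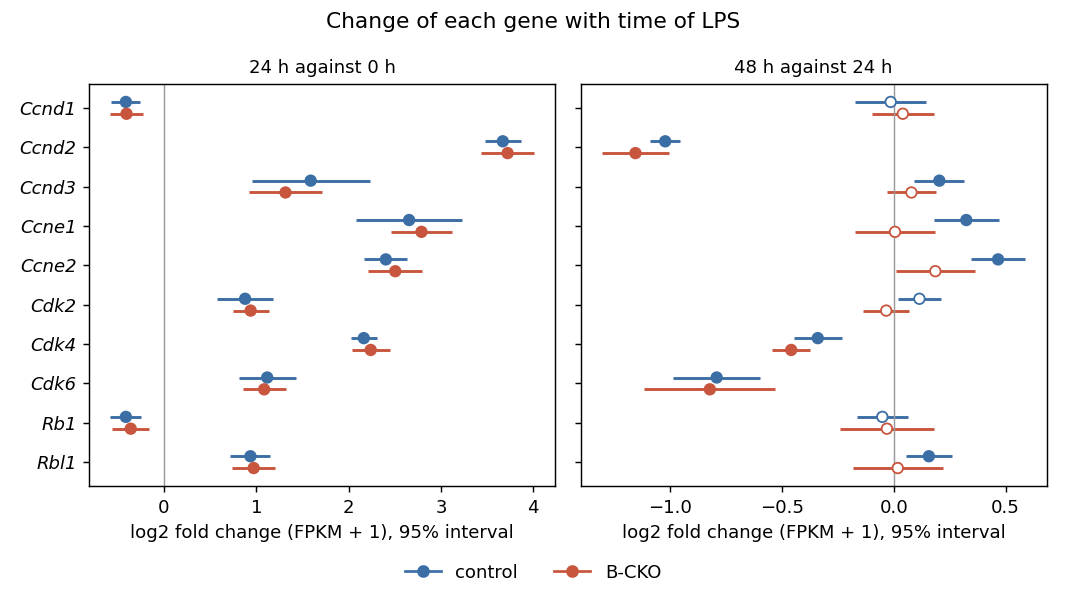
Log2 fold change of FPKM + 1 with its 95% interval for each gene, 24 h against 0 h on the left and 48 h against 24 h on the right (the horizontal scales differ), in control (blue) and B-CKO (red) B cells; filled circles passed an adjusted p of 0.05. All 20 values on the left passed, and on the right *Ccnd2*, *Cdk4* and *Cdk6* fell in both genotypes.

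Over the second day, then, the 10 genes split. In controls 4 rose (*Ccnd3*, *Ccne1*, *Ccne2* and *Rbl1*) and 3 fell (*Ccnd2*, *Cdk4* and *Cdk6*), where 20.1% of 15178 genes rose and 24.8% fell. In B-CKO cells 0 rose and the same 3 fell, where 21.7% of 15253 genes rose and 24% fell. At an unadjusted p under 0.05 stood 8 of the 10 in controls, against 51.3% of all genes, and 4 of the 10 in B-CKO cells, against 51.8%. The single fit of all 18 libraries called 4 in controls, without *Ccnd3* (adjusted p = 0.512), *Ccne1* (adjusted p = 0.183) and *Rbl1* (adjusted p = 0.231). *Ccnd1*, *Cdk2* and *Rb1* passed the threshold in neither genotype.

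The next comparison set B-CKO against control at each time, to see whether loss of *Zbtb24* altered this machinery. None of the 10 genes passed the threshold at any time. At 0 h limma called 0 of the 10 (0 at an unadjusted p under 0.05) and 0% of 15641 genes (313 genes at an unadjusted p under 0.05), and the genotypes overlapped in all 10, where 3.87% of all genes did not overlap. The 0 h values ran from -0.08 for *Ccne1* (95% interval -0.71 to 0.55) to 0.36 for *Ccnd3* (-0.37 to 1.09), and no difference was detectable in this fit. *Zbtb24* itself, at 10.5 to 14.3 against 37.1 to 49.6 FPKM, was not called at 0 h either. The absence of calls at 0 h therefore does not show that the genotypes were equal. *Ccnd3* was higher in the B-CKO mouse of all 3 same-numbered pairs, which deviated together at that time, and its adjusted p with the replicate block was 0.844.

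At 24 h, 0.0993% of 15104 genes were called, 15 genes, and none of the 10, of which 4 had an unadjusted p under 0.05, as did 2463 genes (16.3%). *Ccnd2*, *Cdk2* and *Cdk4* were higher in every B-CKO mouse than in every control mouse, 3 of the 10, where 20.1% of all genes did not overlap. The summed B cell markers and T cell markers were lower in every B-CKO library at 24 h, and their part in these values was not tested. The T cell sum was mostly *Cd2* and *Lck*, both lower in every B-CKO library. Among the low T cell markers *Cd8b1* was higher in every B-CKO library (0.29 to 0.69 against 0.11 to 0.24 FPKM). *Cd28* was lower (0.01 to 0.04 against 0.06 to 0.10 FPKM), and the others overlapped. *Ccnd2* had a value of 0.18 (SE 0.02, 95% interval 0.13 to 0.24, adjusted p = 0.0586), a ratio of mean FPKM of 1.14. It passed the threshold with a pseudocount of 0.1 (adjusted p = 0.0473) and with genes of at least 1 FPKM alone (adjusted p = 0.0159), where 46 and 388 genes were called in all. *Cdk2* had 0.13 (0.04 to 0.21, adjusted p = 0.154), *Cdk4* 0.11 (0.05 to 0.18, adjusted p = 0.134) and *Rbl1* 0.13 (0.01 to 0.24, adjusted p = 0.257). The other 6 values lay between -0.06 for *Cdk6* and 0.12 for *Ccne2*. The median of the 10 was 0.10, against -0.00464 over all genes tested, and the mean FPKM of *Ccnd1* was equal in the genotypes.

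At 48 h, 0.0460% of 15210 genes were called, 7 genes, and none of the 10, of which 2 had an unadjusted p under 0.05, as did 1172 genes (7.71%). Both E-type cyclins were lower in every B-CKO mouse than in every control mouse, 2 of the 10, where 11.1% of all genes did not overlap. *Ccne1* had a value of -0.27 (SE 0.04, 95% interval -0.36 to -0.17, adjusted p = 0.159), a ratio of mean FPKM of 0.826, and *Ccne2* a value of -0.16 (-0.32 to -0.0038, adjusted p = 0.64). The remaining 8 ran from -0.09 for *Cdk6* to 0.06 for *Rb1*. *Ccnd2*, *Cdk2* and *Cdk4*, apart at 24 h, overlapped at 48 h, with values of 0.05, -0.02 and -0.0038. The median of the 10 was -0.02, against -0.0055 over all genes tested.

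**Figure D4:**
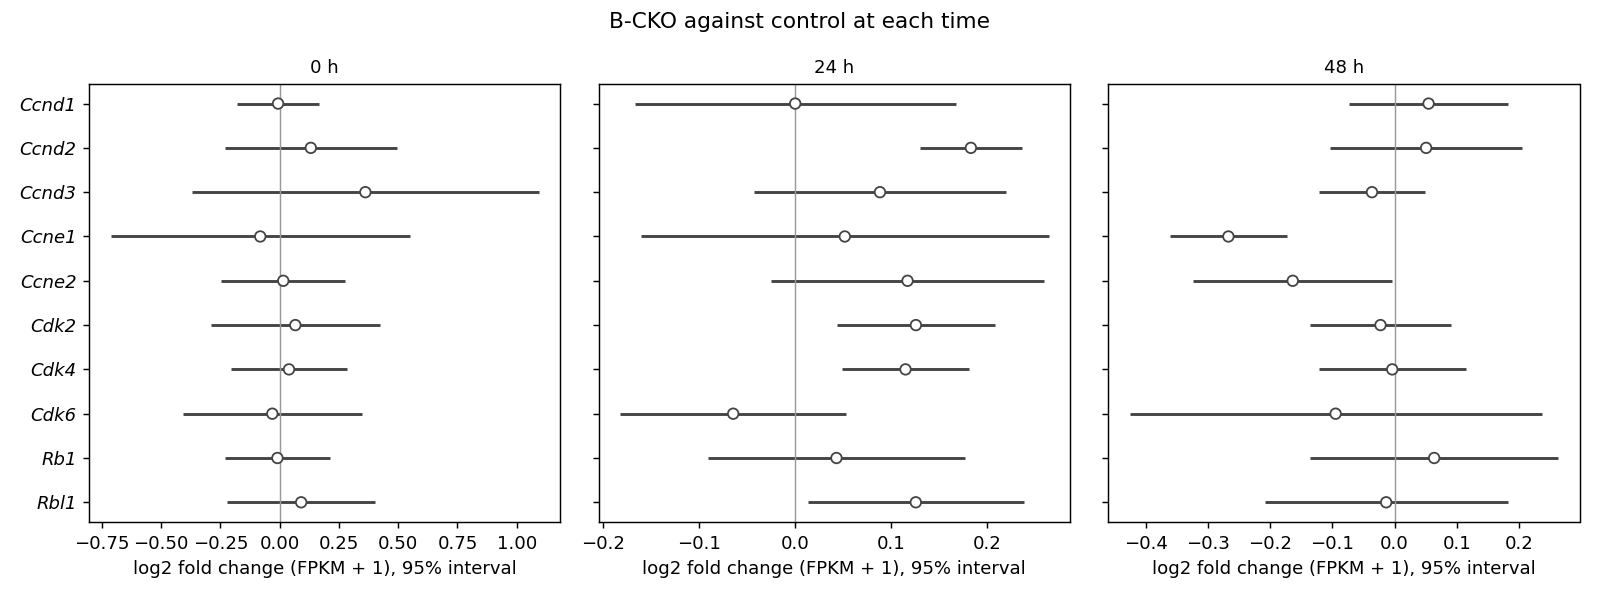
Log2 fold change of FPKM + 1, B-CKO against control, with its 95% interval for each gene at 0 h, 24 h and 48 h (the horizontal scales differ); open circles did not pass an adjusted p of 0.05. All 30 circles are open, the 24 h intervals of *Ccnd2*, *Cdk2*, *Cdk4* and *Rbl1* lie above 0, and the 48 h intervals of *Ccne1* and *Ccne2* lie below 0.

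Whether the genotypes differed in their change with time was tested directly with an interaction contrast over 12 libraries. From 0 h to 24 h it called 0 of the 10 genes and 0% of 16182 genes (limma; 0 and 467 at an unadjusted p under 0.05), and the values ran from -0.27 for *Ccnd3* (95% interval -1.03 to 0.48) to 0.13 for *Ccne1* (-0.52 to 0.79). From 24 h to 48 h it called 0 of the 10 genes and 0% of 15844 genes (limma; 3 and 1158 at an unadjusted p under 0.05). The 3 were *Ccne1* at -0.32 (-0.55 to -0.09, adjusted p = 0.604), *Ccne2* at -0.28 (-0.48 to -0.08, adjusted p = 0.598) and *Cdk2* at -0.15 (-0.28 to -0.02, adjusted p = 0.649). All 3 control mice rose in each of these genes from 24 h to 48 h, against 2, 3 and 1 of the 3 B-CKO mice. The 24 h to 48 h median of the 10 was -0.13, against -0.00367 over all genes that averaged 1 FPKM or more. *Ccnd3*, *Ccne1*, *Ccne2* and *Rbl1* were called over the second day in controls and not in B-CKO cells, and for none of them did the interaction pass (-0.12 for *Ccnd3* and -0.14 for *Rbl1*, adjusted p = 0.745 and 0.825).

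Several members shared a time course. Over the 18 libraries, as Pearson correlations of log2(FPKM + 1) that follow mostly the 3 times, *Ccne1* and *Cdk2* had 0.988, *Ccnd2* and *Cdk4* 0.987, *Cdk2* and *Rbl1* 0.987 and *Ccne1* and *Ccne2* 0.985. Among 9997 genes averaging 1 FPKM or more, those outside the 10 most like *Cdk2* were *Skp2* (0.994), *Hpf1* (0.993) and *Cdca4* (0.992), and those most like *Rbl1* were *Skp2* (0.993), *Dnmt1* (0.992) and *Dna2* (0.990). *Skp2* encodes the ubiquitin ligase subunit that marks p27 for destruction. *Cdk4* was followed most closely by *Ranbp1* (0.999), *Hars* (0.999) and *Ube2n* (0.998), and *Ccnd2* by *Cct7* (0.998), *Ppat* (0.997) and *Cct4* (0.997). *Ccne1* was closest to *Sephs1*, *Ndufv2* and *Nup62* (all 0.995), and *Ccne2* to *Got2*, *Ncapg2* and *Rrm1* (all 0.996). *Ccnd3* came nearest to *Dck* (0.980), *Sdf2l1* and *Rangap1* (both 0.973), *Cdk6* to *Thap12* (0.988), *Utp15* (0.987) and *Nt5c2* (0.986). The genes that fell had looser company: *Ccnd1* with *Sppl3* (0.957), *Inpp5a* and *Tmcc1* (both 0.956), and *Rb1* with *Snrnp48* (0.954), *Gnptg* (0.951) and *Ss18* (0.949).

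The partners of this machinery were followed as lists. Of 7 CDK inhibitors, which hold cyclin and kinase pairs inactive, 2 rose and 3 fell in controls by 24 h. In B-CKO cells 3 rose and 3 fell. Among all genes tested, 26.7% rose and 30.7% fell in controls by 24 h, and 27.5% and 32.3% in B-CKO cells. From 24 h to 48 h 6 of the 7 inhibitors rose and 0 fell in controls, and 7 rose and 0 fell in B-CKO cells. The shares of all genes over that day were 20.1% higher and 24.8% lower in controls and 21.7% and 24% in B-CKO cells. By 24 h the control fall of *Cdkn2d* lost its call without any 1 of the 3 control libraries of 24 h (adjusted p 0.0643 to 0.0916), and the B-CKO fall of *Cdkn1c* without mouse 1 at 0 h or mouse 2 or 3 at 24 h (adjusted p 0.0543 to 0.0733). *Cdkn1a* in controls, with a value of 0.27 (adjusted p = 0.0528), passed with genes averaging 1 FPKM or more (adjusted p = 0.0336) and without control mouse 3 at 0 h (adjusted p = 0.0244). *Cdkn1b*, which encodes p27, the inhibitor of cyclin E and CDK2, was at 64.2 to 89.7 FPKM in controls at 0 h, 20.3 to 22.2 FPKM at 24 h and 47.2 to 52.8 FPKM at 48 h, with changes of -1.72 (adjusted p = 8.45e-05) and then 1.18 (SE 0.05, adjusted p = 2.82e-05). *Cdkn2c*, which encodes the CDK4 and CDK6 inhibitor p18, was at 4.19 to 5.56, 9.29 to 9.81 and 21.4 to 22.7 FPKM. *Cdkn1a*, which encodes p21, was at 2.24 to 2.82, 3.25 to 3.31 and 6.71 to 7.78 FPKM in controls and at 1.54 to 3.22, 1.85 to 2.71 and 6.36 to 7.07 FPKM in B-CKO cells. It was lower in all B-CKO mice at 24 h without passing the threshold (limma, -0.37, SE 0.10, adjusted p = 0.15). *Cdkn2a* (0.65 to 1.36 against 1.47 to 1.56 FPKM) and *Cdkn2d* (9.24 to 11.9 against 12.2 to 13.8 FPKM) were also lower in all B-CKO mice at 24 h. At that time 20.1% of all genes did not overlap between genotypes. *Cdkn2a*, which encodes p16 and p19Arf, was at 0.07 to 0.21 FPKM in controls at 0 h and 6.76 to 9.28 FPKM at 48 h.

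*Rbl2*, which encodes p130, the pocket protein of resting cells, fell as *Rbl1* rose. Controls had 16.8 to 20.9 FPKM at 0 h, 8.45 to 9.56 FPKM at 24 h and 10.9 to 12.6 FPKM at 48 h, changes of -0.99 (SE 0.10, adjusted p = 0.000276) and then 0.39 (SE 0.07, adjusted p = 0.00445). Of the 7 other pocket protein and DREAM complex genes, 3 rose and 1 fell by 24 h in each genotype. Over all genes 26.7% rose and 30.7% fell in controls and 27.5% and 32.3% in B-CKO cells. The list median was 0.05 in controls and 0.13 in B-CKO cells, against -0.02 over all genes in each. The largest rise was that of *Mybl2*, at 4.14 in controls (adjusted p = 4.97e-06) and 4.16 in B-CKO cells (adjusted p = 2.24e-06). The rise of *Lin9*, 1 of the 3, lost its call with TPM scaling (adjusted p = 0.139 in controls and 0.168 in B-CKO cells), with the replicate block (0.0782 and 0.0751) and without any 1 of 4 control libraries (mouse 2 at 0 h, mice 1 to 3 at 24 h) or any 1 of 3 B-CKO libraries (mice 1 to 3 at 24 h), with adjusted p 0.0747 to 0.125.

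Only some members of the E2F and DP list bind pocket proteins (*E2f6*, *E2f7* and *E2f8* do not). The list rose in 7 of 10 members and fell in 1, *Tfdp2*, by 24 h in each genotype. The shares of all genes were 26.7% higher and 30.7% lower in controls and 27.5% and 32.3% in B-CKO cells. The control fall of *Tfdp2* lost its call without any 1 of the 3 control libraries of 24 h (adjusted p 0.0546 to 0.0606). *E2f1* went from 3.51 to 4.72 FPKM in controls at 0 h to 27.2 to 30.2 FPKM at 24 h and 20.5 to 22.9 FPKM at 48 h, a rise of 2.58 (SE 0.11, adjusted p = 1.1e-05) and then a fall of -0.41 (SE 0.06, adjusted p = 0.00133). *Tfdp1*, the dimer partner of E2Fs, rose by 3.20 in controls (adjusted p = 4.97e-06), and *E2f8* by 3.02 (adjusted p = 1.12e-05). Of 18 E2F target genes of S phase, 17 rose and 1, *Cdt1*, fell in each genotype by 24 h, and the median of the list was 2.73 in controls against -0.02 over all genes; *Rrm2* (4.55, adjusted p = 6.46e-06), *Uhrf1* (4.28, adjusted p = 5.64e-06) and *Cdc6* (3.49, adjusted p = 6.46e-06) were among the largest. The fall of *Cdt1* in controls lost its call when any 1 of 4 libraries was left out (adjusted p 0.0577 to 0.0756), and in B-CKO cells when any 1 of 5 was (adjusted p 0.0543 to 0.0851).

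The 4 later cyclins and the kinase *Cdk1* act from S phase to mitosis. In both genotypes 5 of 5 rose on the first day and again 5 of 5 on the second. Among all genes, 26.7% rose on the first day and 20.1% on the second in controls, and 27.5% and 21.7% in B-CKO cells. *Ccna2*, the cyclin that follows cyclin E on CDK2, was at 1.68 to 3.08 FPKM in controls at 0 h, 44.6 to 52.6 FPKM at 24 h and 119 to 121 FPKM at 48 h. *Ccnb1* (3.62) and *Cdk1* (3.60) rose by 24 h beside it. Their rise continued over the interval in which *Ccnd2*, *Cdk4* and *Cdk6* fell. Among 11 genes of CDK activation and turnover, 8 rose and 1 fell by 24 h in each genotype, led by *Cks1b* (3.31 in controls, limma, adjusted p = 4.97e-06). From 24 h to 48 h 2 rose and 6 fell in controls and 1 rose and 6 fell in B-CKO cells. Falls among all genes made up 30.7% in controls and 32.3% in B-CKO cells by 24 h. Over the second day they made up 24.8% and 24%.

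A list of 6 other regulators (*Myc*, *Mycn*, *Foxo1*, *Foxo3*, *Ccnc* and *Ccnk*) mixes growth-promoting factors with factors of rest. Of these, 1 rose and 4 fell by 24 h in each genotype. The shares of all genes were 26.7% higher and 30.7% lower in controls and 27.5% and 32.3% in B-CKO cells. The gene that rose was *Ccnc*, which encodes cyclin C (0.997, adjusted p = 8.1e-05 in controls and 1.197, adjusted p = 0.000313 in B-CKO cells). The fall of *Mycn* lost its call without any 1 of 4 control libraries (mice 2 and 3 at 0 h, mice 1 and 2 at 24 h) or any 1 of the 3 B-CKO libraries of 24 h (adjusted p 0.0652 to 0.103), and with the replicate block in B-CKO cells (0.0504). *Myc* was high before culture, at 199 to 288 FPKM in controls, and stood at 107 to 121 FPKM at 24 h and 50.0 to 56.5 FPKM at 48 h, falls of -0.996 (SE 0.15, adjusted p = 0.00158) and -1.08 (SE 0.06, adjusted p = 4.38e-05). Its highest 0 h value was in mouse 2 of both genotypes, as for *Ccnd3*. *Foxo1* (-1.90, adjusted p = 0.000595) and *Foxo3* (-1.44, adjusted p = 1.51e-05), factors of resting lymphocytes, fell in controls by 24 h. Between genotypes 0 genes of these 7 lists were called at any time by limma.

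**Figure D5:**
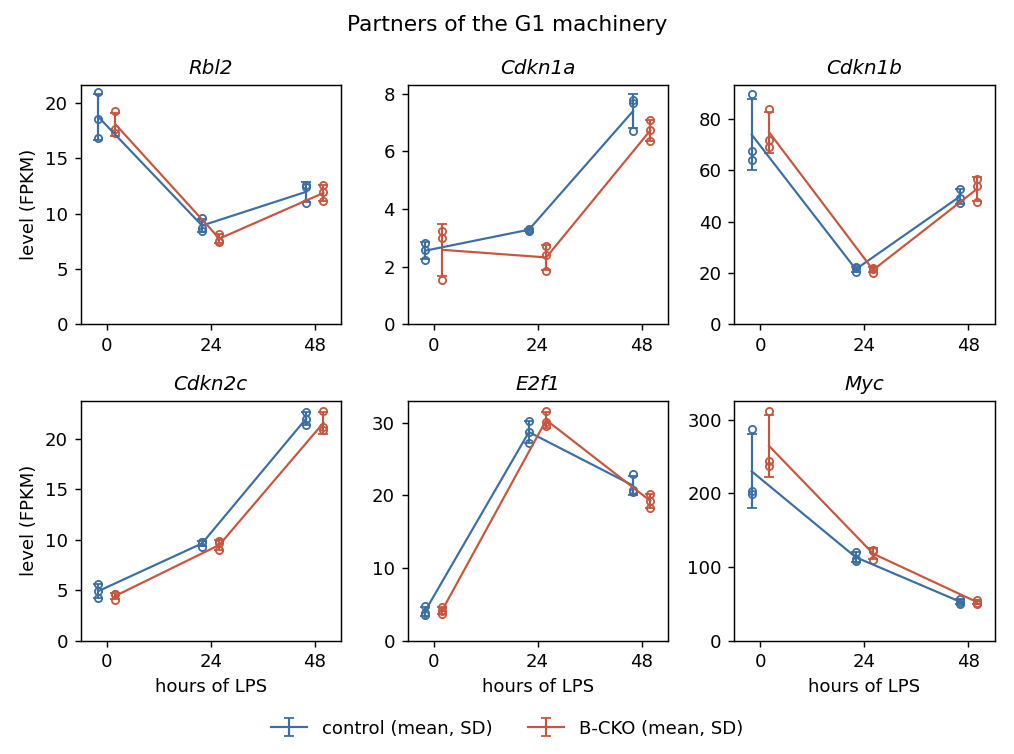
Level (FPKM, vertical axis from 0) of 6 partner genes against hours of LPS in control (blue) and B-CKO (red) B cells; open circles are mice and bars the mean with SD over 3 mice. *Rbl2* and *Cdkn1b* are lowest at 24 h, *Cdkn1a* and *Cdkn2c* are highest at 48 h, *E2f1* is highest at 24 h and *Myc* is lower at each later time.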

How the data were processed

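RNA of purified splenic B cells was sequenced as paired reads in 18 libraries. The authors mapped reads with Bowtie2 to mm10 and deposited FPKM values to 2 decimals, made with Cufflinks and RSEM; the submitters' processing notes also name BWA and DESeq2, and versions are not given in the sources used here. FPKM values are relative to each library, and whole read counts could not be recovered from their steps, so the depth per library is unknown and no counting interval is given. Of 16545 gene IDs, 16512 matched RefSeq.

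Genes above 0 FPKM in any compared library were tested with limma 3.58.1 in R 4.3.3 (lmFit and eBayes with trend) on log2(FPKM + 1), with Benjamini-Hochberg adjustment over all genes tested and a threshold of 0.05. Each comparison of 2 groups used its own 6 libraries, and each interaction 12. The scripts were tested on simulated data. Each replicate came from 1 mouse, per the study's methods. An exact permutation of 3 against 3 cannot give a p below 0.1. Partner genes were named from each list, at most 6 with the largest absolute change by 24 h among those called in the same direction in both genotypes, with Rbl2, Cdkn1a, Cdkn1b, Cdkn2c, E2f1 and Myc whatever their values. Cdt1, Tfdp2 and single T cell markers were named after their values were seen. The 10 genes, the lists and the rules were chosen with earlier results of these data known. Same-numbered B-CKO and control samples deviated together at 0 h (correlations 0.854, 0.468 and 0.789) but not reliably at 24 h (0.103, 0.2 and 0.091) or 48 h (-0.037, 0.216 and 0.23). Between times the numbers were read as the same mice, which the labels do not state. Same-numbered libraries of different times correlated at -0.087 to 0.147 in controls and 0.012 to 0.187 in B-CKO cells. Figures used matplotlib 3.10.9 under Python 3.11.15 with pandas 2.3.3 and numpy 2.4.6. A marker gene of the B cell list is not reported here.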

Additional observations from a re-analysis of the deposited data

How the results depend on the processing

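Alternatives were a pseudocount of 0.1, a mean of at least 1 FPKM, TPM scaling, median ratio scaling, the replicate number as a block, a single fit of 18 libraries and leaving out each library. The mouse as a block in the interactions, and the list counts, were added after seeing the data. The mean log2 scaling that TPM applied to the libraries differed by -0.17 between 24 h and 0 h in both genotypes. Every first-day call of the 10 genes held under all of these. In controls from 24 h to 48 h the single fit called 4 of the 10 genes. From 24 h to 48 h in B-CKO cells, TPM scaling gave -0.048 for Ccne1 and -0.035 for Rbl1. Between genotypes median ratio scaling gave 0.00064 for Ccnd1 and 0.0049 for Rb1 at 0 h and 0.0053 for Cdk4 at 48 h, and TPM scaling gave -0.0052 for Ccnd1 at 24 h. At 24 h the count of the 10 genes called between genotypes was 1 with a pseudocount of 0.1 and 1 with a mean of at least 1 FPKM, Ccnd2 in each. None of the values that changed sign passed the threshold in either setting, and the cause was not tested.

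With the replicate block, Cdk2 in controls from 24 h to 48 h passed (adjusted p = 0.0432), and no other call of the 10 genes changed. Over all genes the block called 5 in place of 15 at 24 h and 3 in place of 7 at 48 h between genotypes. With a mean of at least 1 FPKM 388 genes were called at 24 h and 29 at 48 h. A pseudocount of 0.1 called 46 at 24 h, and the single fit called 23 at 0 h and 11 at 48 h.

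Leaving out each library in turn changed the sign of these uncalled log2 values, given as lowest to highest. In B-CKO cells from 0 h to 24 h the range was Cdkn1a -0.31 to 0.052. In B-CKO cells from 24 h to 48 h the range was Ccnd1 -0.012 to 0.091, Ccne1 -0.062 to 0.088, Cdk2 -0.066 to 0.0083, Rb1 -0.10 to 0.054 and Rbl1 -0.062 to 0.10. Between genotypes at 0 h the range was Ccnd1 -0.040 to 0.047, Ccne1 -0.29 to 0.18, Ccne2 -0.052 to 0.12, Cdk2 -0.023 to 0.21, Cdk4 -0.048 to 0.11, Cdk6 -0.10 to 0.089 and Rb1 -0.058 to 0.050. Between genotypes at 24 h the range was Ccnd1 -0.053 to 0.055, Ccne1 -0.030 to 0.12 and Rb1 -0.015 to 0.073. Between genotypes at 48 h the range was Ccnd2 -0.0031 to 0.12, Cdk2 -0.055 to 0.019, Cdk4 -0.046 to 0.035, Cdk6 -0.19 to 0.045, Rb1 -0.0087 to 0.15 and Rbl1 -0.094 to 0.070. In controls from 24 h to 48 h the range was Ccnd1 -0.066 to 0.041. In the genotype difference of the change from 0 h to 24 h the range was Ccnd1 -0.047 to 0.062, Ccnd2 -0.078 to 0.16, Ccne1 -0.12 to 0.34, Cdk2 -0.080 to 0.15, Cdk6 -0.15 to 0.036, Rb1 -0.0066 to 0.10 and Rbl1 -0.027 to 0.13. In the genotype difference of the change from 24 h to 48 h the range was Ccnd1 -0.00075 to 0.11, Cdk6 -0.12 to 0.11 and Rb1 -0.052 to 0.10. Depth is unknown, and the larger spread at 0 h limits the genotype comparison there.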

Other observations

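The 18 E2F target genes of S phase summed to 2048 to 2192 FPKM in control libraries and 2273 to 2493 FPKM in B-CKO libraries at 24 h, which did not overlap, and to 2147 to 2272 FPKM and 2034 to 2223 FPKM at 48 h, which did. At 24 h 20.1% of all genes did not overlap between genotypes. The summed CDK inhibitors were also lower in every B-CKO library at 24 h. The sums of the other pocket protein and DREAM genes and of CDK activation and turnover were higher. The sums of the E2F and DP factors (325 to 345 FPKM in controls and 340 to 356 FPKM in B-CKO cells), of the later cyclins with Cdk1 and of the other regulators overlapped. The 20.1% is a share of single genes, and no such share was computed for sums. None of the 18 target genes passed the threshold between genotypes at either time. The 4 later cyclins and Cdk1 together summed to 7.13 to 10.8 FPKM in controls at 0 h, 124 to 152 FPKM at 24 h and 387 to 396 FPKM at 48 h, and in B-CKO cells to 8.22 to 10.3 FPKM, 139 to 157 FPKM and 370.4 to 394 FPKM.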
